A study of Homo sapiens with 12 samples.

Results

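9 genes that hold back apoptosis were described in the HMC-1 mast cell sublines: the anti-apoptotic BCL2 family members MCL1, BCL2, BCL2L1 (BCL-xL), BCL2L2 (BCL-w) and BCL2A1 (BFL-1), and the inhibitors of caspases or of their activation XIAP, BIRC2 (cIAP1), BIRC5 (survivin) and CFLAR (FLIP). They were chosen by name and matched on their symbols, and all 9 were found among the 58381 genes in the files. Of the 9, 8 passed the filter on low counts and were tested among 15944 genes. HMC-1 is an established human line that was derived from mast cell leukemia and grows without added stem cell factor. HMC-1.1 carries the V560G variant in the juxtamembrane domain of the receptor tyrosine kinase KIT, HMC-1.2 carries V560G together with D816V in the kinase domain, and HMC-1.3 was made from HMC-1.2 by CRISPR/Cas9 repair of the V560G allele, which leaves D816V alone. Polyadenylated RNA was sequenced from 12 libraries, with 3 each of the sublines HMC-1.1 and HMC-1.2 and of clone 1 and clone 2 of HMC-1.3. The variants are heterozygous in the study's account, so each group carries an activated KIT allele beside a wild-type one, and none of the groups is without an activating variant. Each HMC-1.3 group is 1 edited clone, so an effect of the repair and a property of the clone cannot be told apart within that clone. The genotypes were taken from the methods of the study and were not checked in these files. The 3 libraries of a group came from wells plated in triplicate, so that p-values measure the spread between wells.

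Apoptosis through mitochondria is decided by binding between relatives. Anti-apoptotic BCL2 proteins hold the pore-forming effectors BAX and BAK1 and the BH3-only proteins that trigger them, and MCL1 differs from the others in being a short-lived protein. Downstream, XIAP blocks active caspases directly, BIRC2 is a ubiquitin ligase at tumor necrosis factor receptors, CFLAR competes with caspase-8 at death receptors, and BIRC5 works mainly in the chromosomal passenger complex of dividing cells. Mast cells depend on KIT signaling for survival, and in this lineage KIT is known to act on BCL2 relatives.

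The libraries held between 29225900 and 43181402 expected counts, with a common biological coefficient of variation of 0.0442 between replicates. Of 12 mast cell markers 11 were above 1 FPKM (mapped fragments scaled to transcript length and to the size of the library) in at least 1 library, and KIT itself lay between 346 and 469 FPKM. The IgE receptor subunits FCER1A and MS4A2, which define mature mast cells, reached only 1.27 and 0.45 FPKM. The summed level of the 12 markers was 1733 to 1836 FPKM in the libraries of HMC-1.1 and of both clones and 2495 to 2522 FPKM in HMC-1.2, and the 8 markers of other cell types summed to at most 1.98 FPKM in any library. Most of that gap was the tryptase gene TPSAB1, at 573 to 607 FPKM in HMC-1.2 and 27.6 to 45.2 elsewhere. Without it the sum of the other 11 was 1888 to 1949 FPKM in HMC-1.2 and 1697 to 1806 elsewhere. KIT went the other way, at 346 to 363 FPKM in HMC-1.2 and 400 to 469 elsewhere. In each of the 3 comparisons with HMC-1.2, 7 of the 12 markers were lower and 4 higher outside it. Of all genes tested, 29.3% (clone 1), 23.8% (clone 2) and 26.5% (HMC-1.1) were lower. The shares higher were 30.1%, 24.7% and 27.2%, so 4 of 12 higher was near them. Several differences given here lie between the same groups as these markers, whose part in them was not tested.

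On the FPKM scale the 9 genes fell into a wide order. BCL2L1 was the most abundant, with a mean of 220 FPKM over the 12 libraries that exceeded the mean of 97.3% of the genes tested. MCL1 followed at 90.7 FPKM, then CFLAR at 62.2, BIRC5 at 57.0, BIRC2 at 19.1, XIAP at 12.4, BCL2L2 at 8.92 and BCL2 at 6.20 FPKM. CFLAR and BIRC5 were neighbors whose ranges met, at 55.2 to 69.6 and 50.1 to 63.4 FPKM. The ranges of BCL2L2 (6.86 to 11.8 FPKM) and BCL2 (5.11 to 8.48 FPKM) also met, as did those of BIRC2 (14.7 to 21.8 FPKM) and XIAP (10.8 to 15.7 FPKM). BCL2A1, which is known as an NF-kappaB target in other blood cells, had 5 counts in all 12 libraries together. It was listed at 1 count in HMC-1.2 replicate 1, 3 in HMC-1.2 replicate 3, 1 in clone 1 replicate 3 and 0 in the other 9 libraries, so no level above the limit of 3 counts was seen in any library and no fold change is given.

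**Figure D1:**
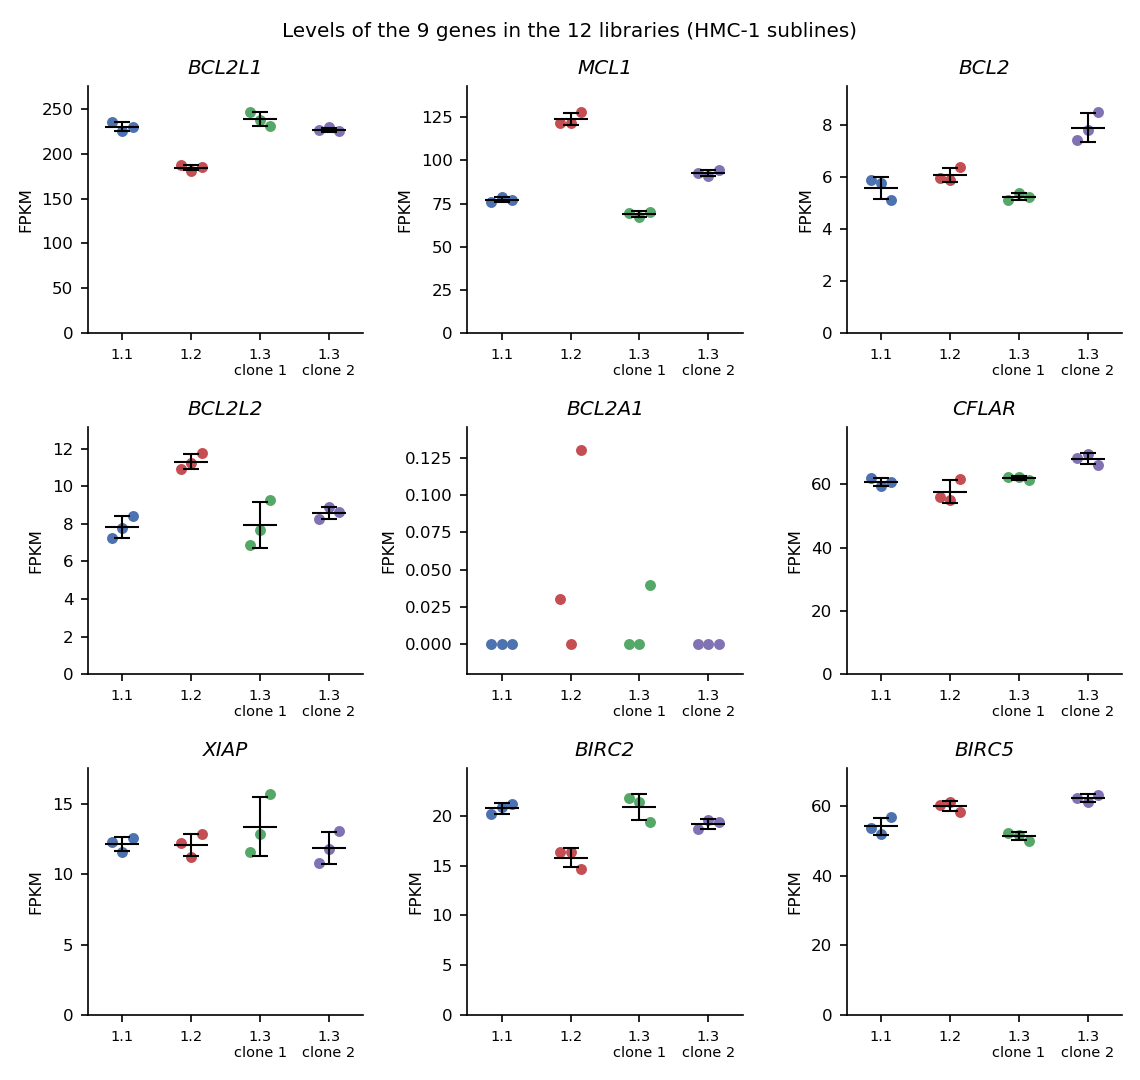
FPKM (y axis, from 0) of each of the 9 genes in every library (points) of the 4 sublines (x axis), with the mean and SD of 3 libraries as black bars except for BCL2A1. MCL1 separates all 4 sublines, BCL2L1 and BIRC2 are low and BCL2L2 is high in HMC-1.2, BCL2 is high in clone 2, and XIAP overlaps throughout.

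The promoters of the most and least abundant member are printed, and that of BCL2 because its neighborhood is described with the results. Promoter windows of 300 bases (250 before and 50 after the start, RefSeq, build GRCh38.p14) were found for 6 of the 9 genes. CG dinucleotides are in capitals, and each window is written 5′ to 3′ along its own gene, here on the minus strand.
BCL2L1 promoter, chr20:31723914-31724213: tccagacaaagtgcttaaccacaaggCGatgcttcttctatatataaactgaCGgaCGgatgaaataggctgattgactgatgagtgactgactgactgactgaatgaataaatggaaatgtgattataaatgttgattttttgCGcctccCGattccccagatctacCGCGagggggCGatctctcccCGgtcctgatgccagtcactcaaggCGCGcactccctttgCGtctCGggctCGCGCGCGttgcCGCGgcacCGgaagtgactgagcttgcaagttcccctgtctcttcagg
BCL2 promoter, chr18:63319720-63320019: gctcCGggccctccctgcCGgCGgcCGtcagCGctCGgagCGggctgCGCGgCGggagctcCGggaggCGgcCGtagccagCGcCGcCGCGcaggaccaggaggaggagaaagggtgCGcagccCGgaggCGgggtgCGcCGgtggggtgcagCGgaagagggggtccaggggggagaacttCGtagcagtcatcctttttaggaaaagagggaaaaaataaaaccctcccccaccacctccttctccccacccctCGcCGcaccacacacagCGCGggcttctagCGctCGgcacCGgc
BCL2A1 promoter, chr15:79971147-79971446: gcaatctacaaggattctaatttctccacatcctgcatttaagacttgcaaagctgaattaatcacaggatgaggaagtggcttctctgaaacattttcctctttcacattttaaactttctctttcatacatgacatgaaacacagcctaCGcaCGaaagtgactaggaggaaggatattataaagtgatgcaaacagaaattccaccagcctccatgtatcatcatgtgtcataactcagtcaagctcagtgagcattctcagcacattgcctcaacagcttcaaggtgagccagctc
The table holds a second BCL2L1 window further into the gene, with 16 CG dinucleotides, and the upstream one is shown. That BCL2L1 window held 20 CG dinucleotides, the BCL2 window 31 and the BCL2A1 window 2, where the median over 34796 distinct promoter windows was 14. Fewer CG dinucleotides than in the BCL2A1 window were found in 11.01% of all windows. CFLAR, at a mean of 62.2 FPKM, had windows with 21, 0, 1 and 22 CG dinucleotides. Whether this count goes with the level of a gene was not tested. The pattern TTCNNNGAA, which is bound by STAT factors and reads the same on both strands, was present once in the BCL2A1 window and in none of the other 12 windows of the set, and in 7.67% of all windows. A looser pattern of the kind bound by NF-kappaB, GGG and CC with any 5 bases between them on either strand, was present in 8 of the 13 windows of the set and in 58.6% of all windows. A match is a description of letters and not of binding, and CG dinucleotides were counted after these matches had been seen.

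MCL1 was the member that varied most. It was higher in HMC-1.2 than in every other subline and differed in all 6 pairs of groups. Its FPKM were 121.84, 121.93 and 127.80 in HMC-1.2, 92.49, 91.13 and 94.48 in clone 2, 76.03, 78.79 and 76.96 in HMC-1.1, and 69.74, 67.21 and 70.23 in clone 1. No 2 groups overlapped. From HMC-1.2, MCL1 fell by 0.88 on the log2 scale in clone 1 (SE 0.03, adjusted p = 4.654e-14, from the quasi-likelihood test of edgeR, adjusted by Benjamini-Hochberg over all genes tested, as is every adjusted p given here unless another test is named). The corresponding log2 differences were -0.43 in clone 2 (SE 0.03, adjusted p = 5.328e-10) and -0.69 in HMC-1.1 (SE 0.03, adjusted p = 1.002e-12). As ratios of scaled counts these were 1.84-fold, 1.35-fold and 1.62-fold lower levels. The clones also parted on either side of HMC-1.1, with clone 1 lower (log2 difference -0.18, adjusted p = 0.0002512) and clone 2 higher (0.26, adjusted p = 1.101e-06). Clone 1 was below clone 2 by a log2 difference of -0.44 (95% interval -0.50 to -0.39, adjusted p = 8.48e-10), which is also the test of whether the clones changed differently from their shared parent. MCL1 lies on chromosome 1 (chr1:150560895-150579738, minus strand, GRCh38, Gencode 44). The 176 genes tested with midpoints within 5 Mb of it had median log2 differences of 0.02, 0.03 and 0.01 in the same 3 comparisons with HMC-1.2. The difference in MCL1 was therefore not matched by the median of its neighbors.

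BCL2L1 moved the other way in the same comparisons. Its FPKM were 187.13, 181.10 and 185.14 in HMC-1.2, against 235.69, 225.62 and 229.68 in HMC-1.1, 246.15, 238.29 and 230.62 in clone 1, and 226.17, 229.68 and 225.53 in clone 2. All 9 libraries outside HMC-1.2 lay above all 3 of HMC-1.2, while clone 1 and clone 2 each overlapped HMC-1.1. The clones overlapped each other on scaled counts but not in FPKM, where clone 1 was the higher. Relative to HMC-1.2, BCL2L1 rose by a log2 difference of 0.32 in clone 1 (SE 0.03, adjusted p = 2.66e-07), 0.27 in clone 2 (SE 0.03, adjusted p = 2.363e-06) and 0.28 in HMC-1.1 (SE 0.03, adjusted p = 1.368e-06). Among HMC-1.1, clone 1 and clone 2 no pair passed the test. The 95% intervals of those 3 log2 differences were -0.03 to 0.10 for clone 1 against HMC-1.1, -0.08 to 0.06 for clone 2 against HMC-1.1 and -0.02 to 0.11 for clone 1 against clone 2. On chromosome 20, 78 neighbors of BCL2L1 had median log2 differences of -0.0039, -0.033 and -0.0043 from HMC-1.2.

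BCL2L2, a close relative of BCL2 and BCL2L1, was higher in HMC-1.2. It stood at 10.95, 11.24 and 11.76 FPKM in HMC-1.2, 7.27, 7.77 and 8.44 in HMC-1.1, 6.86, 7.68 and 9.30 in clone 1, and 8.27, 8.89 and 8.65 in clone 2. HMC-1.2 did not overlap any other group, and the other 3 groups overlapped each other. The log2 differences from HMC-1.2 were -0.53 in clone 1 (SE 0.08, adjusted p = 1.705e-05), -0.42 in clone 2 (SE 0.08, adjusted p = 0.000265) and -0.47 in HMC-1.1 (SE 0.08, adjusted p = 7.316e-05). The read-through gene BCL2L2-PABPN1 shares the strand and the exons of BCL2L2, held 35.96 to 151.79 counts per library, and can take part of its reads in the counting. With the counts of both genes added, the log2 differences from HMC-1.2 were -0.48, -0.42 and -0.49.

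BCL2, the founding member of the family, was the only one of the 5 that was highest in clone 2. Its FPKM were 7.41, 7.81 and 8.48 there, 5.97, 5.88 and 6.37 in HMC-1.2, 5.89, 5.78 and 5.11 in HMC-1.1, and 5.11, 5.37 and 5.23 in clone 1. Clone 2 lay above all 9 other libraries. BCL2 therefore differed in opposite directions in the clones relative to HMC-1.2, at a log2 difference of -0.27 in clone 1 (SE 0.05, adjusted p = 0.0004011) and 0.35 in clone 2 (SE 0.05, adjusted p = 3.101e-05). The difference between the clones was -0.62 (95% interval -0.73 to -0.50, adjusted p = 5.082e-08), 1.53-fold. Clone 2 was also above HMC-1.1 by 0.49 (adjusted p = 1.404e-06). HMC-1.1 was below HMC-1.2 by -0.14 with an adjusted p of 0.037, and this call was lost without HMC-1.1 replicate 3 or without HMC-1.2 replicate 1 or 3. Clone 1 against HMC-1.1 did not pass (-0.13, adjusted p = 0.113), but passed without HMC-1.1 replicate 3.

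The neighbors of BCL2 moved with it in clone 2. BCL2 spans chr18:63123346-63320128 on the minus strand (GRCh38). Within 5 Mb of its midpoint 19 other genes were tested, and in clone 2 against HMC-1.2 their median log2 difference was 0.67, with 15 of 19 higher (78.9%, where 24.7% of all genes tested were higher). Against HMC-1.1 the median in clone 2 was 0.68, again with 15 of 19 higher (78.9%, where 18.5% of all genes tested were higher). In clone 1 against clone 2 the median was -0.67, and 16 of 19 were lower (84.2%, where 24.7% of all genes tested were lower). In clone 1 against HMC-1.2 the median was -0.16, with 5 of 19 higher and 8 lower (26.3% and 42.1%). Of all genes tested 30.1% were higher and 29.3% lower there, so the share higher was near that of all genes. The difference of BCL2 in clone 2 was thus smaller than the median of its neighbors, and whether both have the same source was not tested. Those 19 include PMAIP1 (NOXA), a BH3-only protein that binds MCL1, and RP11-299P2.2, a transcript of 48 to 100 counts on the opposite strand within BCL2.

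**Figure D2:**
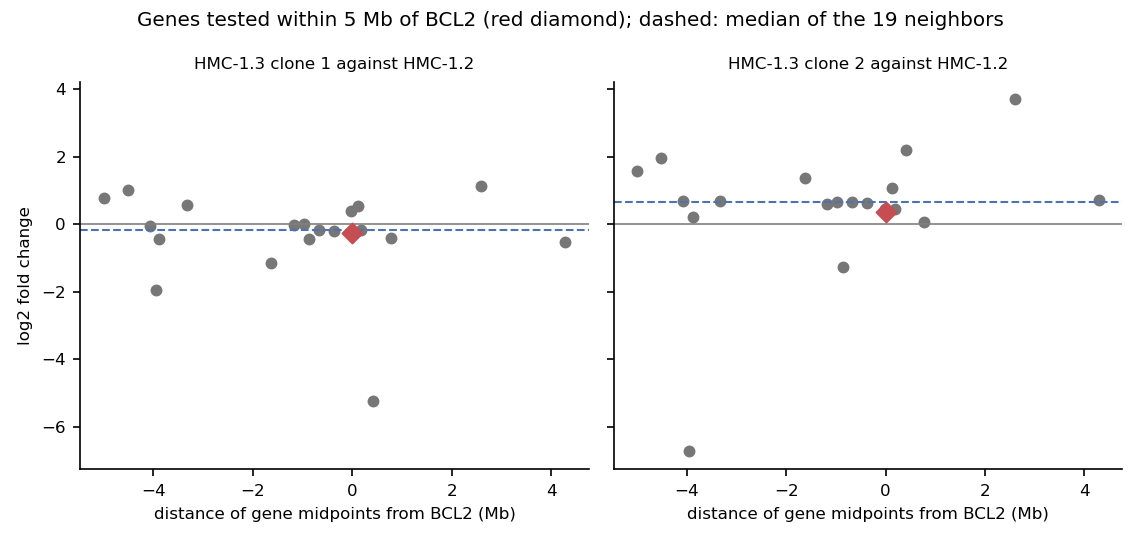
Log2 fold change (y axis) of the genes tested within 5 Mb of BCL2 against the distance of their midpoints from it in Mb (x axis), for clone 1 (left) and clone 2 (right) relative to HMC-1.2. The dashed line is the median of the 19 neighbors, at -0.16 in clone 1 and 0.67 in clone 2, and BCL2 (diamond) is at -0.27 and 0.35.

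The composition of the anti-apoptotic BCL2 members differed more than their sum. Summed over the 5 genes, the FPKM were 321 ± 3.53 for HMC-1.1, 321 ± 6.47 for clone 1, 326 ± 5.53 for HMC-1.2 and 336 ± 1.73 in clone 2 (mean ± SD, n = 3). MCL1 made up 38.0% ± 0.605 of that sum in HMC-1.2, 27.6% ± 0.519 in clone 2, 24.1% ± 0.689 in HMC-1.1 and 21.5% ± 0.630 in clone 1. BCL2L1 made up 56.6% ± 0.760 in HMC-1.2 and 67.5% ± 0.587, 71.7% ± 0.794 and 74.3% ± 1.06 in clone 2, HMC-1.1 and clone 1. The ratio of BCL2L1 to MCL1 was 1.49 ± 0.0438 in HMC-1.2, 2.45 ± 0.0668 in clone 2, 2.98 ± 0.118 in HMC-1.1 and 3.45 ± 0.147 in clone 1, and no 2 groups overlapped in it. The near-equal sums hold on the FPKM scale only. On CPM, which are counts scaled to library size by TMM and not divided by transcript length, the sums were 799 (clone 1), 825 (HMC-1.1), 891 (clone 2) and 923 (HMC-1.2), while MCL1 still had its largest share in HMC-1.2 (48.8%) and its smallest in clone 1 (30.7%). With 3 libraries against 3, an exact permutation test cannot go below p = 0.10, so the sums and shares are given as a description.

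**Figure D3:**
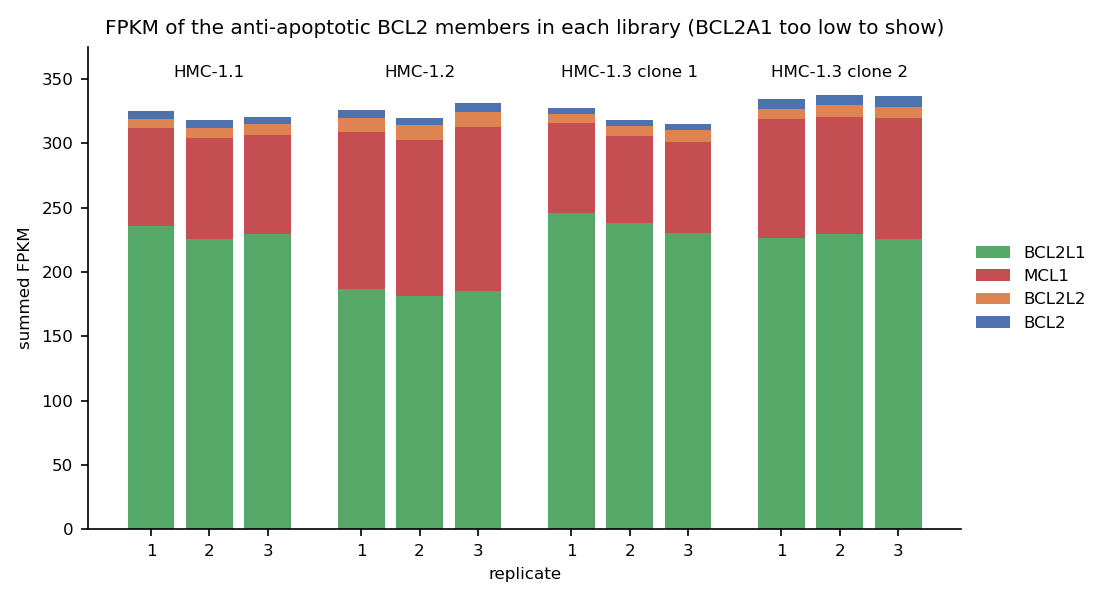
Stacked FPKM (y axis, from 0) of BCL2L1, MCL1, BCL2L2 and BCL2 in each of the 12 libraries (x axis, replicates grouped by subline). The bars reach 315 to 338 FPKM, and MCL1 takes 37.4% to 38.6% of the bar in HMC-1.2 and 21.1% to 28.0% elsewhere.

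BIRC5, which is made mostly in dividing cells, separated the clones. It stood at 60.51, 61.27 and 58.46 FPKM in HMC-1.2, 62.46, 61.31 and 63.35 in clone 2, 53.78, 51.94 and 56.97 in HMC-1.1, and 52.31, 51.68 and 50.08 in clone 1. Clone 2 and HMC-1.2 were the higher pair, and they overlapped each other on scaled counts though not in FPKM. BIRC5 was lower than in HMC-1.2 in clone 1 (log2 difference -0.29, SE 0.04, adjusted p = 2.679e-06) and in HMC-1.1 (-0.19, SE 0.04, adjusted p = 0.0003915), and clone 2 did not pass (0.04, 95% interval -0.04 to 0.12, adjusted p = 0.3997). Between the clones the log2 difference was -0.33 (95% interval -0.41 to -0.26, adjusted p = 9.813e-07), and clone 2 was above HMC-1.1 by 0.22 (adjusted p = 0.0001219). Clone 1 was below HMC-1.1 by -0.11 with an adjusted p of 0.0498. That last call was lost in 10 of the 12 fits that left out a library and under 5 other settings.

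Mitotic genes that passed were lower than in HMC-1.2, while the partners of BIRC5 went both ways in clone 1. Of 8 mitotic genes fixed as a list, all 8 were lower in clone 1 than in HMC-1.2 (median log2 difference -0.24), 4 were lower in clone 2 (median -0.14) and 5 were lower in HMC-1.1 (median -0.18), with none higher. The shares of all genes tested that were lower were 29.3%, 23.8% and 26.5%. Between the clones 6 were lower and 1 higher in clone 1, where 24.7% of all genes tested were lower. The exception was CDK1, the kinase that drives entry into mitosis, whose log2 difference from HMC-1.2 was -1.02 in clone 2 (adjusted p = 1.102e-13) and -0.24 in clone 1 (adjusted p = 8.05e-06). CDK1 had 56.2 to 60.6 FPKM in clone 2 and 99.3 to 117 FPKM elsewhere. Of the 3 partners of BIRC5 in the chromosomal passenger complex, INCENP was lower in clone 1 than in HMC-1.2 by a log2 difference of -0.42. AURKB was higher there by 0.11 and CDCA8 did not pass (-0.06). In clone 2 and in HMC-1.1, 1 of the 3 partners was lower than in HMC-1.2 and 0 were higher. The shares of all genes lower were 29.3% (clone 1), 23.8% (clone 2) and 26.5% (HMC-1.1), and those higher 30.1%, 24.7% and 27.2%. The 180 genes near BIRC5 on chromosome 17 had median log2 differences of -0.12 for clone 1, -0.10 for HMC-1.1 and -0.05 for clone 2, each from HMC-1.2.

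BIRC2 was lower in HMC-1.2 than in every other subline. Its FPKM were 16.33, 16.35 and 14.67 in HMC-1.2, 20.16, 20.93 and 21.15 in HMC-1.1, 21.82, 21.35 and 19.36 in clone 1, and 18.66, 19.60 and 19.39 in clone 2. All 3 HMC-1.2 libraries were below the other 9. Relative to HMC-1.2 the log2 difference was 0.28 in clone 1 (SE 0.05, adjusted p = 0.0002235), 0.17 in clone 2 (SE 0.05, adjusted p = 0.01526) and 0.28 in HMC-1.1 (SE 0.05, adjusted p = 0.0002381). The call in clone 2 was lost without HMC-1.2 replicate 2 or replicate 3, with log2 differences of 0.13 to 0.15. The 15 genes tested within 5 Mb of BIRC2 on chromosome 11 had medians of 0.31, 0.32 and 0.25 in the same 3 comparisons, beside 0.28, 0.17 and 0.28 for BIRC2 itself. Of these 15, 4, 7 and 7 were higher (26.7%, 46.7% and 46.7%, where 30.1%, 24.7% and 27.2% of all genes tested were higher), so the share in clone 1 was near that of all genes. Whether these have the same source was not tested. BIRC3 (cIAP2), the adjacent paralog that can share reads with BIRC2, was near the lower end of detection, at 0.14, 0.14 and 0.21 FPKM in clone 1, 0.22, 0.29 and 0.31 in HMC-1.2, 0.16, 0.28 and 0.30 in HMC-1.1, and 0.40, 0.48 and 0.57 in clone 2. Clone 1 was below clone 2 in BIRC3 by a log2 difference of -1.48 (SE 0.27, adjusted p = 0.0001854).

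CFLAR changed little. It stood at 56.12, 55.18 and 61.83 FPKM in HMC-1.2, 61.99, 59.52 and 60.90 in HMC-1.1, 62.35, 62.37 and 61.40 in clone 1, and 68.43, 69.61 and 66.20 in clone 2. Clone 2 was the highest group and did not overlap the others in FPKM, though it overlapped HMC-1.1 on scaled counts. Against HMC-1.1 clone 2 did not pass (log2 difference 0.07, adjusted p = 0.1464). CFLAR was higher than in HMC-1.2 in clone 2 (log2 difference 0.21, SE 0.04, adjusted p = 0.000209) and in HMC-1.1 (0.14, SE 0.04, adjusted p = 0.006099), but not past the test in clone 1 (0.09, SE 0.04, adjusted p = 0.06302). Clone 1 was below clone 2 by -0.12 (adjusted p = 0.01209). By limma on log2(FPKM + 1) the clone 1 difference passed (0.10, adjusted p = 0.04552) and the HMC-1.1 difference did not (0.08, adjusted p = 0.1488). Without HMC-1.2 replicate 3, the highest of its group, clone 1 passed as well, at a log2 difference of 0.12.

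XIAP passed the test in none of the 6 pairs. Its FPKM were 12.19, 11.23 and 12.84 in HMC-1.2, 12.29, 11.61 and 12.57 in HMC-1.1, 11.57, 12.85 and 15.67 in clone 1, and 10.80, 11.77 and 13.07 in clone 2. All groups overlapped. The largest log2 difference was 0.07 (clone 1 against HMC-1.2, 95% interval -0.06 to 0.20), and the lowest adjusted p over the 6 pairs was 0.3172.

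**Figure D4:**
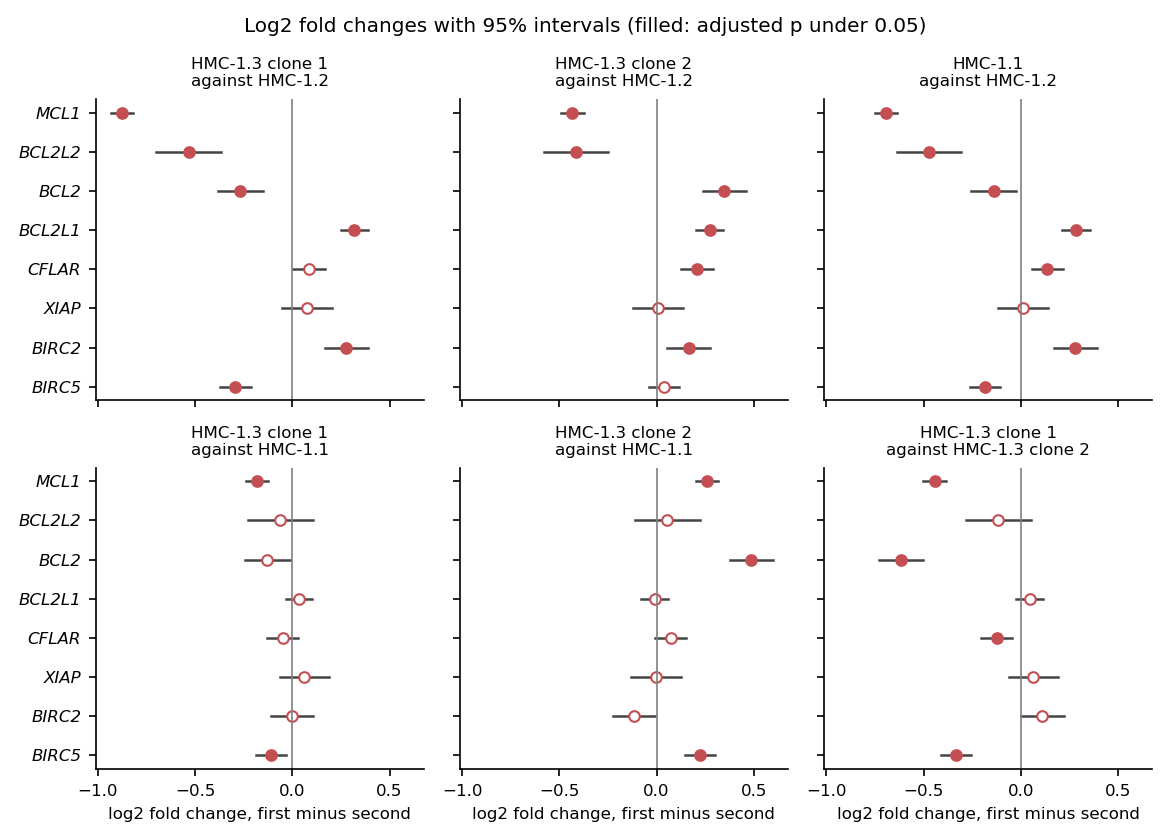
Log2 fold change of the 8 genes tested (points; filled where the adjusted p is under 0.05) with the 95% interval (lines) in the 6 pairs of groups, the first named minus the second. MCL1 and BCL2L2 lie left and BCL2L1 and BIRC2 right of 0 in all 3 comparisons with HMC-1.2, and BCL2 lies at -0.27 in clone 1 and 0.35 in clone 2.

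The numbers of members that passed are given beside the shares of all genes, and whether they differ from those shares was not tested. In clone 1 against HMC-1.2, 6 of 8 passed (2 higher, 4 lower), where 59.4% of the genes tested passed (30.1% higher, 29.3% lower). Clone 2 against HMC-1.2 gave 6 of 8 (4 higher, 2 lower) beside 48.5% (24.7% higher, 23.8% lower). The comparison of HMC-1.1 with HMC-1.2 gave 7 of 8 (3 higher, 4 lower) beside 53.7% (27.2% higher, 26.5% lower). Clone 1 against HMC-1.1 gave 2 of 8, both lower, beside 18.7% (8.87% higher, 9.83% lower). It gave 1 of 8 in the settings that lost BIRC5, except without HMC-1.1 replicate 3, where BCL2 passed in its place. Clone 2 against HMC-1.1 gave 3 of 8, all higher, beside 36% (18.5% higher, 17.5% lower). Clone 1 against clone 2 gave 4 of 8, all lower, beside 50.2% (25.5% higher, 24.7% lower). The comparisons share groups, so these counts are not independent of each other. A fold change over 1.5 as well was reached by 1 member, MCL1, in clone 1 (20% of all genes) and in HMC-1.1 (17.6%), each set against HMC-1.2. BCL2 reached it in clone 1 against clone 2 (12.6%), though not without clone 2 replicate 3, and BCL2L2 joined MCL1 in clone 1 against HMC-1.2 without clone 1 replicate 3, while no member did so in clone 2 against HMC-1.2 (16.5%), clone 1 against HMC-1.1 (1.01%) or clone 2 against HMC-1.1 (8.19%). The median size of the log2 difference in the members was 0.28, 0.24 and 0.23 in the 3 comparisons with HMC-1.2, against 0.29, 0.21 and 0.24 over all genes tested. It was 0.06, 0.09 and 0.12 in the other 3 comparisons, in the order given above, against 0.12, 0.16 and 0.22. The counts of groups that did not overlap on scaled counts were 6, 6, 7, 2, 4 and 5 of 8, beside 64.2%, 56%, 59.9%, 33.3%, 47.2% and 56.7% of all genes.

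Over the 12 libraries MCL1 and BCL2L1 ran in opposite directions (Pearson r = -0.91 of log2 CPM), as did BCL2L1 and BCL2L2 (-0.94), while MCL1 and BCL2L2 ran together (0.87). BCL2 was closest to BIRC5 (0.81), and XIAP stood apart from every other member, with r between -0.46 and 0.26. The 12 points form 4 groups and are not independent, so these values describe the group pattern. The genes whose pattern was most like that of MCL1 were HNRNPH1, SPN and TYW3 (r = 1.00, 0.99 and 0.99). For BCL2 they were GINS1, C3orf70 and WDR7 (0.98, 0.97 and 0.97), and for BCL2L1 they were SH3BGRL, ANXA5 and TIMMDC1 (0.99 for each).

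The opponents of these survival proteins also differed, and list genes named in the text other than BIRC3, XAF1, TRAF1, BMF, BBC3, BAK1, PMAIP1, USP9X, CDK1 and NFKBIA were picked after their values were seen. Of 9 BH3-only and effector genes tested, 5 were higher and 3 lower in clone 1 relative to HMC-1.2. The counts were 5 higher and 2 lower in clone 2 and 5 higher and 3 lower in HMC-1.1. Of all genes tested, 30.1%, 24.7% and 27.2% were higher and 29.3%, 23.8% and 26.5% lower in these comparisons. The counts of lower genes were thus near their shares. BBC3 (PUMA), which binds all anti-apoptotic BCL2 members, had 18.3 to 20.4 FPKM in HMC-1.2 and 52.2 to 56.3 in clone 1, 46.6 to 49.6 in HMC-1.1 and 30.3 to 32.3 in clone 2. Its log2 differences from HMC-1.2 were 1.48 in clone 1 (SE 0.05, adjusted p = 7.733e-14), 0.69 in clone 2 (SE 0.05, adjusted p = 3.45e-09) and 1.297 in HMC-1.1 (SE 0.05, adjusted p = 4.967e-13). BMF rose by 1.36, 1.52 and 1.42 on the log2 scale in the same order, from 0.89 to 1.46 FPKM in HMC-1.2. PMAIP1 rose by 0.57, 0.69 and 0.61, and BCL2L11 (BIM) by 0.26, 0.30 and 0.41. BAK1, the effector held by MCL1 and BCL2L1, was lower by log2 differences of -0.73, -0.38 and -0.69. In contrast BAX was higher by 0.16, 0.22 and 0.19. HRK and BOK were not tested, with at most 0 and 11 counts in a library.

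Of 4 genes for MCL1 turnover, the deubiquitinase USP9X, which spares MCL1 protein from degradation, was higher than in HMC-1.2 by log2 differences of 0.81 (clone 1), 0.87 (clone 2) and 0.95 (HMC-1.1), with 16.4 to 18.6 FPKM in HMC-1.2 and 27.3 to 34.9 elsewhere. The ubiquitin ligase gene HUWE1 did not pass in any pair, and FBXW7 was lower in clone 2 only among the 3 comparisons (-0.38). Of 4 IAP antagonists, 2 were lower and none higher in each comparison with HMC-1.2, where 29.3% (clone 1), 23.8% (clone 2) and 26.5% (HMC-1.1) of all genes tested were lower. Those 2 included XAF1, a partner of XIAP, at -1.14 (HMC-1.1), -0.87 (clone 1) and -0.79 (clone 2). Of the other 4 anti-apoptotic and IAP genes tested, 1 was higher and 3 lower in clone 1, 1 higher and 1 lower in clone 2, and 1 lower in HMC-1.1, beside the same shares of all genes lower and 30.1%, 24.7% and 27.2% higher. BIRC3, near the lower end of detection, was among those lower in clone 1 and was the higher gene in clone 2. Its call in clone 1 was lost in 4 fits that left out a library and by limma on log2(FPKM + 1) and log2(FPKM + 0.1). In clone 2 its call was lost in 3 fits that left out a library. BCL2L10 was too low to test, at 5 counts or fewer.

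Of 9 caspase and apoptosome genes, 1 was higher and 4 lower in clone 1, 2 and 3 in clone 2, and 2 and 6 in HMC-1.1, none of them past 1.5-fold. Over all genes tested 30.1%, 24.7% and 27.2% were higher and 29.3%, 23.8% and 26.5% lower. CASP8, the caspase that CFLAR competes with, was higher by 0.16, 0.25 and 0.14 in that order. Of 5 death receptor adaptors, 4, 3 and 5 were lower and none higher, where 29.3%, 23.8% and 26.5% of all genes tested were lower. TRAF1, which was low at 0.42 to 1.23 FPKM, was below HMC-1.2 in clone 2 (-0.76) and HMC-1.1 (-0.78). Its difference in clone 1 was -0.32 (adjusted p = 0.05209). Of 6 NF-kappaB feedback targets, 1 was higher and 2 lower in clone 1, 3 were lower in clone 2, and 1 was higher and 3 lower in HMC-1.1, beside the same shares of all genes, and 2 of 6 lower in clone 1 was near its share. The higher gene was NFKBIA, at 0.72 in clone 1 and 0.56 in HMC-1.1, with 0.23 in clone 2 (adjusted p = 0.05942).

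**Figure D5:**
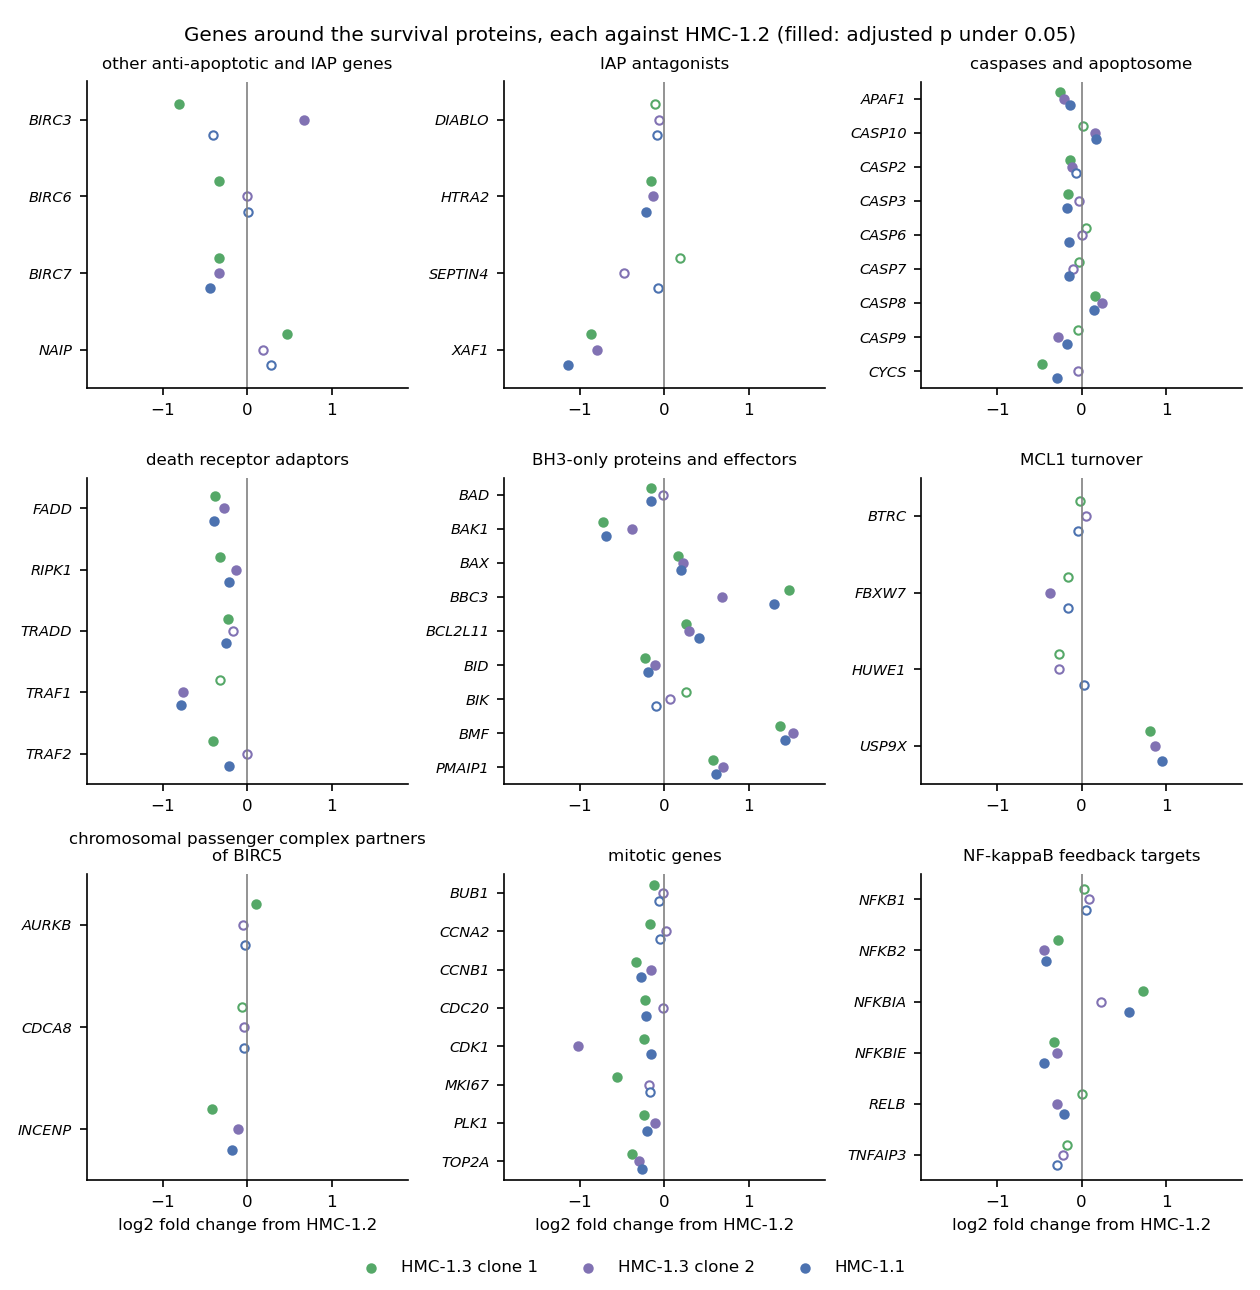
Log2 fold change from HMC-1.2 (x axis) of every tested gene of the 9 pathway lists in clone 1, clone 2 and HMC-1.1 (colors; filled where the adjusted p is under 0.05). BBC3, BMF, PMAIP1 and USP9X lie right of 0 and XAF1 and BAK1 left of 0 in all 3 comparisons, and CDK1 is at -1.02 in clone 2.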

How the data were processed

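Stranded mRNA libraries were sequenced from 12 cultures. Per the labels, the authors used cutadapt 2.10 for trimming, STAR 2.5.3 for alignment (hg38) and RSEM 1.3.0 for estimated counts. They deposited a table of expected counts per gene and a table of FPKM. The counter's strand setting was not given in the sources used here, so overlapping genes on opposite strands may not be told apart. RSEM estimates FPKM per isoform-weighted length, so FPKM ratios and count ratios can differ. Positions came from Gencode 44, which holds 99.0% of the gene identifiers, 58.8% of these in the same version. The identifiers of the members carry older versions.

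Expected counts were rounded and 15944 genes kept by filterByExpr. edgeR 4.0.16 was used with TMM and its quasi-likelihood test, with 4 groups in 1 model, no covariates and Benjamini-Hochberg adjustment (R 4.3.3). A gene passed at an adjusted p under 0.05, and a further count asked for a fold change over 1.5. Standard errors were the log2 fold change over the root of F. Groups came from sample titles. Totals per library were 29225900 to 43181402, replicates differed by more than sampling noise, and limits from counts cover counting error only. The scripts were tested on simulated data.

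The members and lists were chosen with earlier results of these data known, and neither is independent evidence. At most 4 genes per list were named by their largest change from HMC-1.2 past both thresholds, and for each member the 3 most correlated genes were sought. Promoter features were chosen after the sequences had been seen. Alternatives were DESeq2 1.42.0 and its size factors, no filter, fits of 2 groups, a replicate block, a term for 3 libraries that the labels mark as resent, limma 3.58.1 on log2 FPKM with pseudocounts of 1 and 0.1, and leaving out each library. The sum of BCL2L2 and BCL2L2-PABPN1 was added after seeing the data.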

Additional observations from a re-analysis of the deposited data

Results flagged for a closer look

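The HMC-1.3 clones come from the same parent, and the contrast of clone 1 against clone 2 tests whether they changed differently from HMC-1.2 (edgeR's quasi-likelihood test, adjusted over all genes tested). It passed for 4 of the 8 survival genes tested, where 50.2% of all genes passed. The log2 difference was -0.44 for MCL1 (adjusted p = 8.48e-10), -0.62 for BCL2 (adjusted p = 5.082e-08), -0.33 for BIRC5 (adjusted p = 9.813e-07) and -0.12 for CFLAR (adjusted p = 0.01209), all lower in clone 1. Relative to HMC-1.2, MCL1 was lower in both clones, BIRC5 passed in clone 1 alone, and BCL2 moved in opposite directions. The neighbors of BCL2 on chromosome 18 had a median of -0.67 in the same contrast.

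Among list genes the clones also differed in BIRC3 (-1.48), PMAIP1 (-0.12) and BAK1 (-0.35), lower in clone 1, and in TRAF1 (0.44), BBC3 (0.79), CDK1 (0.78) and NFKBIA (0.49), higher in clone 1. The PMAIP1 call was lost without clone 1 replicate 3 or clone 2 replicate 1 (-0.0927 and -0.101), and that of TRAF1 without clone 1 replicate 2 or clone 2 replicate 1 (0.387 and 0.389). Both calls were also lost by limma on log2(FPKM + 1) and log2(FPKM + 0.1), with adjusted p of 0.06326 and 0.06707 for PMAIP1 and 0.07128 and 0.07941 for TRAF1. With 3 libraries per group no library was tested for standing apart from its group. Clone 1 and clone 2 are single clones, so a difference between them and chance variation among edited clones cannot be told apart.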

How the results depend on the processing

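Of 48 log2 differences of the members, 32 kept their direction and their side of the threshold in all 20 or 21 alternatives, among them every difference of MCL1. By limma on log2(FPKM + 1) and log2(FPKM + 0.1), the BCL2 difference of HMC-1.1 from HMC-1.2 no longer passed (-0.10 and -0.12, adjusted p = 0.2633 and 0.2568), nor did that of CFLAR (0.076 and 0.077), while CFLAR passed in clone 1 against HMC-1.2 (0.10 and 0.11) and in clone 2 against HMC-1.1 (0.16 and 0.16). The BCL2 difference between the clones then fell under 1.5-fold, leaving 0 members past it. In clone 1 against HMC-1.1, BIRC5 was lost without a filter (-0.11), with 2 groups in the model (-0.11), with a term for resent libraries (-0.11) and by limma (-0.076 and -0.078), leaving 1 member past the test. Reversals were of differences that did not pass. In clone 1 against HMC-1.1 limma gave BCL2L2 0.0125 and 0.0131, BIRC2 0.0049 and 0.0051 and CFLAR 0.0287 and 0.0292, and the summed counts gave BCL2L2 0.0096. In clone 2, XIAP was -0.0248 and -0.0269 against HMC-1.2 by limma, and against HMC-1.1 1.9e-06 with DESeq2's size factors and 0.00039 with no filter. XAF1 between the clones was 0.0534 and 0.0598 by limma, and TRAF1 in clone 2 against HMC-1.1 was -0.014 with the resent term.

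With the replicate number as a block, CFLAR passed in clone 1 against HMC-1.2 (0.0853, adjusted p = 0.03445), and no other call of a member changed. Same-numbered libraries had correlations of deviations between -0.04 and 0.10 over 18 pairs, with a median of 0.029. The median was -0.0099 over the 36 pairs with different numbers. None was over the limit of 0.1 used here, and the main fit did not pair the wells by number. Yet 8 of 12 libraries were closest to their own number, so these correlations do not show that pairing was absent.

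Leaving out each library in turn gave these ranges of log2 differences. In clone 1 against HMC-1.1 they were -0.18 to -0.0959 for BCL2, -0.13 to 0.0361 for BCL2L2, -0.0531 to 0.0444 for BIRC2, -0.15 to -0.0776 for BIRC5, -0.12 to 0.0269 for BAK1 and -0.14 to 0.0207 for BMF. In clone 2 against HMC-1.1 they were -0.034 to 0.0183 for BCL2L1, -0.16 to -0.0873 for BIRC2, -0.0656 to 0.0523 for XIAP and -0.0558 to 0.0823 for TRAF1. For HMC-1.1 relative to HMC-1.2 they were -0.18 to -0.0889 for BCL2 and -0.016 to 0.0516 for XIAP. BIRC2 in clone 2 and CFLAR in clone 1 ranged from 0.13 to 0.21 and from 0.0562 to 0.12 against HMC-1.2, XIAP in clone 2 from -0.0563 to 0.0645, and BIRC2 between the clones from 0.0676 to 0.15. Members past the test in clone 1 against HMC-1.1 numbered 1 to 2. Those past 1.5-fold as well numbered 1 to 2 in clone 1 against HMC-1.2 (2 without clone 1 replicate 3) and 0 to 1 between the clones (0 without clone 2 replicate 3).

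With FPKM divided by the TMM factor the sum of the 5 BCL2 members was 331.7 (HMC-1.2), 338.2 (clone 2), 319.7 (HMC-1.1) and 314.5 (clone 1), a wider spread than in FPKM. On TMM-scaled CPM it was 825, 923, 799 and 891 in HMC-1.1, HMC-1.2, clone 1 and clone 2, with MCL1 shares of 33.8%, 48.8%, 30.7% and 37.4%. Whether these shifts arise from transcript length was not tested. Depth limits BCL2A1, with 5 counts in all, and BIRC3.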
